A study of Bos taurus with 36 samples.

Results

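The 2× glands of 6 multiparous Holstein cows were compared between day 40 and day 23 of lactation. These were the glands of the left side of the udder, milked 2 times a day throughout, so that milking did not change between the compared days. The comparison took the 6 arrays labelled as control glands on day 40 and the 6 labelled as control glands on day 23, 12 of the 36 arrays of the series, paired by cow. The right side of the same udders was milked 4 times a day until day 21 and 2 times a day from then on (former 4× glands), and its arrays from the same days, with the 2× glands on day 21, served for comparison. The day 40 biopsies came from the rear gland and the day 23 biopsies from the fore gland, whereas those of day 21 came from the rear gland, so that in this comparison stage of lactation and gland position cannot be told apart. The day 23 biopsy also followed an earlier biopsy of the same side by 2 days. The rear gland sampled on day 40 had itself been biopsied on day 21, whereas the study took no earlier biopsy of the fore gland. An earlier biopsy of the gland thus cannot be told apart from stage and position either.

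Milk is made by alveolar epithelial cells, which draw on protein folding, lipid synthesis and transport while they secrete. Heat shock proteins are chaperones that fold newly made or damaged proteins, and their genes share heat shock factors as activators. A mammary biopsy also holds ductal and myoepithelial cells, fibroblasts with their matrix, vessels and leukocytes. An array of such a biopsy cannot separate a smaller share of a cell type from less RNA per cell. The tissue label was borne out by milk protein transcripts, whose mean level over 9 genes lay between 13.82 and 13.92 on day 40 and between 13.77 and 13.98 on day 23 (log2 scale, as are all levels and changes below).

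No single probe set differed between day 40 and day 23 after adjustment. Of 24016 probe sets tested with limma, 0.0% had an adjusted p under 0.05, with or without moderation, and the smallest adjusted p was 0.245. At an unadjusted p under 0.05, 977 probe sets (4.07%) were higher and 964 (4.01%) were lower on day 40, and 339 (1.41%) had an unadjusted p under 0.01, 203 of them higher and 136 lower. With each array centred on its median the split at 0.05 became 1168 higher and 757 lower. Without the cow block it was 488 and 577. Changes were small, with a median of -0.02, and 6 probe sets had a change of 2-fold or more, all toward higher values on day 40. All of these belong to the largest gene cluster of the study, which was chosen on arrays of this series. A single cow had a large part in these counts: the total of 1941 became 1206 without cow 1, 885 without cow 3, 997 without cow 6 and 3071 without cow 4. The values below are therefore given cow by cow or as ranges, and an unadjusted p marks a gene for description and is no call. Counts of list members given as higher or lower are likewise at an unadjusted p under 0.05, and are read against 4.07% and 4.01% of all probe sets. In 6 of 6 cows 1.22% of all probe sets were higher on day 40 and 1.93% were lower, which is the background for such statements below. Lists hold 1 probe set a gene: in a fit of 9155 probe sets chosen so, 482 were higher and 264 lower.

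Among the gene lists, the heat shock proteins had the largest share of genes higher on day 40. Of 20 genes measured, 19 had positive changes, 15 (75.0%) were higher on day 40 at an unadjusted p under 0.05, against 4.07% of all probe sets, and none was lower. Their median change was 0.42, against -0.02 over all probe sets. The list mean differed by 0.56, 0.63, 0.41, -0.08, 0.04 and 0.57 between day 40 and day 23 in cows 1 to 6. The mean was higher on day 40 by 0.41 or more in cows 1, 2, 3 and 6, and cows 4 and 5 had nearly equal levels on both days. No cow decided the count alone, which lay between 10 and 16 when each was left out in turn.

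HSPA1A, the stress-inducible HSP70 chaperone, had levels of 9.12, 9.52 and 9.82 on day 40, against 8.24, 9.03 and 9.19 on day 23 (lowest, median and highest of 6 cows). It was higher in all 6 cows, although the ranges of the days overlapped slightly. The fitted change was 0.60 ± 0.13 (SE), a 1.52-fold higher level (adjusted p = 0.499 in limma). The exact sign-flip test over the cows gave p = 0.031, the smallest it can give. It must give this value wherever all 6 cows change in the same direction. HSPA1A was named for its small p, so this test adds no support. A second probe set annotated to HSPA1A had the smallest p of the whole array, with levels of 6.96, 7.77 and 8.38 on day 40, against 6.54, 6.87 and 7.35 on day 23, and a change of 0.88 ± 0.17. When cow 5 was left out, this HSPA1A probe set alone passed the adjustment (adjusted p = 0.037). Another had a change of 0.66 ± 0.15 with no overlap between the days, at 8.10 to 8.74 on day 40 and 7.04 to 8.06 on day 23. The other 3 probe sets that carry this symbol had changes of -0.13, 0.06 and -0.12, none of them past an unadjusted p of 0.05.

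The co-chaperones followed the same order. DNAJB1, a J-domain partner of HSP70, had 6.64, 6.999 and 7.60 on day 40, against 6.34, 6.61 and 6.97 on day 23 (change 0.46 ± 0.11). DNAJA1, another such partner, had 8.09, 8.64 and 9.04 on day 40, against 7.64, 8.21 and 8.54 on day 23 (0.46 ± 0.11). BAG3, which releases substrates from HSP70, had 7.97, 8.39 and 9.23 on day 40, against 7.67, 7.94 and 8.09 on day 23 (0.55 ± 0.14). All of these were higher in 6 of 6 cows and overlapped between the days. HSPA8, the constitutive chaperone of the same family, was higher in 5 of 6 cows and had a change of 0.48 ± 0.12. HSP90AA1, the inducible cytosolic HSP90, was higher in 6 of 6 cows and had a change of 0.48 ± 0.15, and HSPH1, a nucleotide exchange factor for HSP70, of 0.55 ± 0.17. The small heat shock proteins CRYAB and HSPB1 had changes of 0.67 ± 0.25 and 0.39 ± 0.13. The mitochondrial chaperones HSPD1 and HSPE1 had changes of 0.09 ± 0.13 and 0.12 ± 0.12, within their errors, and HSF1, the transcription factor that drives the family, had 8.06 to 8.26 on day 40 and 8.07 to 8.28 on day 23.

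**Figure D1:**
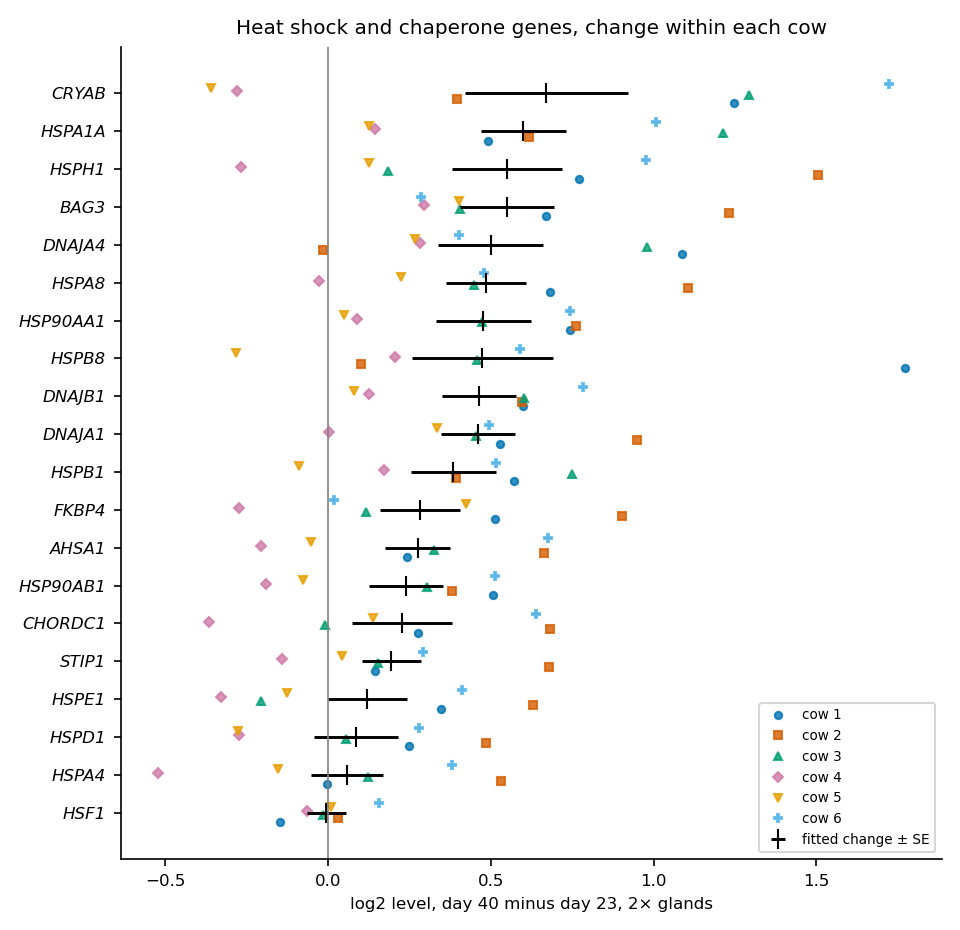
Change of each of the 20 heat shock and chaperone genes in the 2× glands (log2 level, day 40 minus day 23), with 1 coloured point a cow and a black mark for the fitted change ± SE. Most points of cows 1, 2, 3 and 6 lie right of 0, those of cows 4 and 5 lie on both sides of 0, between -0.52 and 0.42, and HSF1 at the bottom had a change of -0.00.

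Set against day 21, which was a rear gland like day 40, the heat shock genes were lower on day 23, while on day 40 their median stood near that of day 21. Their median change was -0.33 for day 23 minus day 21, with 12 of 20 lower at an unadjusted p under 0.05 (8.65% of all probe sets were lower in that comparison), and 0.07 for day 40 minus day 21, with 1 of 20 higher (3.06% of all). The comparisons share arrays and are not independent. HSPA1A averaged 9.46 on day 21, 8.91 on day 23 and 9.51 on day 40. The endoplasmic reticulum chaperones and regulators of the unfolded protein response did not share the pattern: 1 of 21 genes, HERPUD1, was higher on day 40 (0.23 ± 0.10), and the list's median was -0.00.

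In the former 4× glands of the same cows the heat shock genes had a median change of 0.17 between the same days, with 7 of 20 higher, where 3.32% of all probe sets were higher and 3.23% were lower. The direct test of the difference between the udder sides gave no adjusted p under 0.05 for any probe set (smallest 0.479), and 4 of the 20 genes had a more positive change in the 2× glands (unadjusted p under 0.05), against 4.28% of all probe sets. HSPA1A had a change of 0.60 ± 0.13 in the 2× glands and of 0.28 ± 0.13 in the former 4× glands, and the difference of 0.32 ± 0.18 did not pass (adjusted p = 0.50). CRYAB had the largest gap among them, with 0.67 ± 0.25 in the 2× glands and -0.35 ± 0.25 in the former 4× glands.

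Connective tissue genes were among those with small p. PRELP, a proteoglycan of connective tissue, had the smallest p of the genes taken at 1 probe set each: it measured 7.06, 7.22 and 7.67 on day 40, against 5.64, 6.78 and 6.99 on day 23. The days did not overlap, as for 38 (0.158%) of all probe sets, and the change was 0.69 ± 0.15, a 1.61-fold higher level (adjusted p = 0.499 in limma). A dimmer PRELP probe set had a change of -0.14 ± 0.10. Of the 31 genes listed for extracellular matrix and fibroblasts, 5 were higher and 1 was lower, with a median of 0.14, and 4 were higher in 6 of 6 cows, against 1.22% of all probe sets. PRELP is not on that list. The count of 5 higher was 1 without the replicate block, and lay between 4 and 8, the highest without cow 5, when each cow was left out in turn.

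DPT (dermatopontin), which binds decorin and collagen fibrils, had a change of 0.66 ± 0.19, FBLN1 (fibulin 1) of 0.56 ± 0.17 and COL12A1, a fibril-associated collagen, of 0.63 ± 0.19. MGP (matrix Gla protein), an inhibitor of calcification, had 9.60, 10.60 and 11.25 on day 40, against 8.15, 9.95 and 10.80 on day 23, higher in 6 of 6 cows (0.81 ± 0.29). The other 3 MGP probe sets had changes of -0.06, -0.10 and -0.17, and the other COL12A1 probe sets of -0.08 and 0.15. POSTN was also higher (0.46) and TNC lower (-0.19), both added after their values were seen, while DPT, FBLN1 and COL12A1 were named for their small p. The main fibrillar collagens COL1A1 and COL3A1 had changes of -0.01 and 0.15. DPT had a change of 0.62 ± 0.19 in the former 4× glands, where it was higher in 6 of 6 cows as well. The list did not share this there: its median was 0.02, with 17 of 31 positive. In those glands 1 of the 31 was higher and 3 were lower, against 3.32% and 3.23% of all probe sets. In the 2× glands the mean level of the list was 7.60 to 8.27 on day 40 and 7.34 to 8.21 on day 23. The part of fibroblast content in these changes was not tested.

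**Figure D2:**
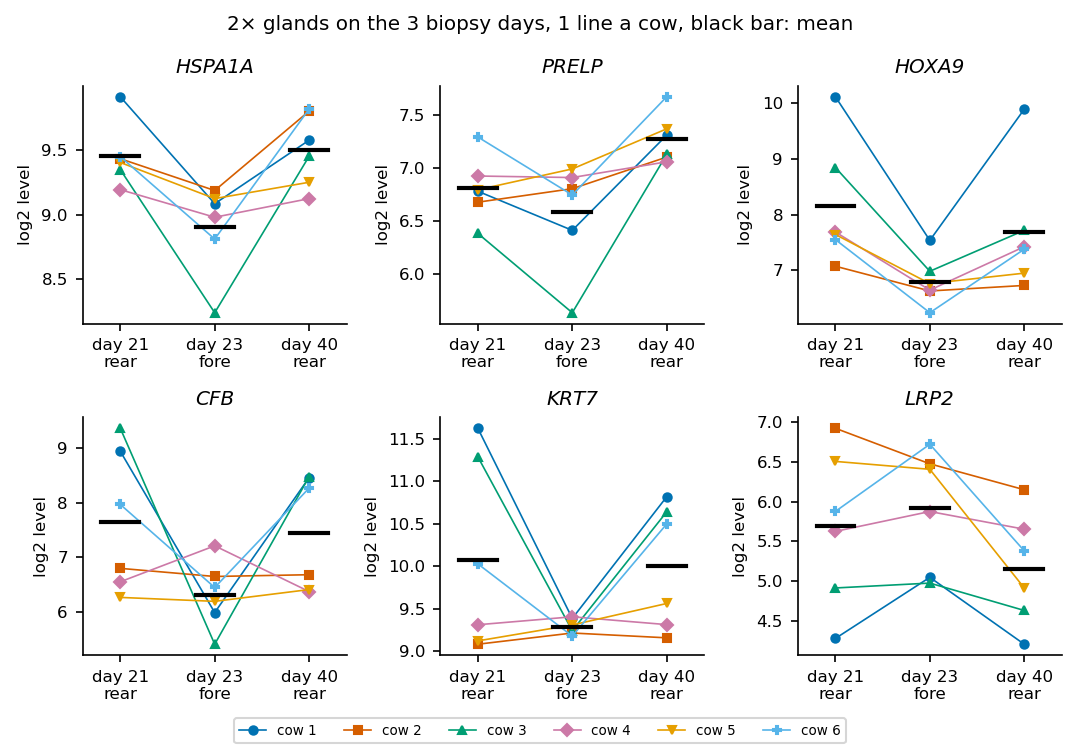
Log2 levels of 6 genes in the 2× glands on days 21, 23 and 40, 1 line a cow, with the mean as a black bar and the gland position under each day. PRELP is above all its day 23 values on day 40, HSPA1A and HOXA9 are lowest in the mean on day 23, and CFB and KRT7 differ widely between cows on days 21 and 40 and less on day 23.

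Epithelial, complement and defence genes had larger differences that were less even between cows. Many of them, KRT7, CLDN4, CFB, CFI, CLU, CHI3L1 and LTF, belong to the study's largest cluster. That cluster was chosen with the help of the day 23 arrays compared here, so that their changes are no independent evidence. Among 21 keratin and junction genes 6 (28.6%) were higher on day 40, against 4.07% of all probe sets, and none lower, with a median of 0.19. KRT7, a simple-epithelial keratin, had a change of 0.71 ± 0.25, CLDN4, a tight-junction claudin, of 0.59 ± 0.21, and EPCAM, an epithelial adhesion molecule, of 0.39 ± 0.13. The list mean differed by 0.69, -0.12, 0.57, -0.08, -0.08 and 0.49 in cows 1 to 6, so that cows 1, 3 and 6 were higher on day 40 and the other cows were close to no change. Leaving out cow 3 left 3 genes higher at an unadjusted p under 0.05, leaving out cow 5 gave 10, and the fit without the replicate block gave 3. In the former 4× glands the list had a median of -0.06, with 6 of 21 positive.

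Among 21 complement genes 4 (19.0%) were higher, against 4.07% of all probe sets, and none lower (median 0.17). All but C4A of those higher are in the study's largest cluster. CFB, the factor B of the alternative pathway, had the largest change toward higher values among annotated genes with an unadjusted p under 0.01. It had 6.38, 7.47 and 8.47 on day 40, against 5.42, 6.33 and 7.21 on day 23, a 2.18-fold higher mean (1.12 ± 0.36, adjusted p = 0.613 in limma). It was higher in 5 of 6 cows, and the exact sign-flip test gave p = 0.156. CFI, a protease that inactivates C3b, had a change of 1.19 ± 0.52 and was higher in 3 of 6 cows. C4A, of the classical pathway, was higher in 6 of 6 cows by 0.42 ± 0.15. CLU (clusterin), a secreted chaperone that also inhibits the terminal complex, had 9.84, 11.21 and 12.62 on day 40, against 9.52, 10.33 and 11.07 on day 23 (0.92 ± 0.41). Without cow 1 or cow 6 the complement count was 2, and without the replicate block it was 1. In the former 4× glands the complement list had a median of -0.04, with 9 of 21 positive.

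Of 39 acute phase and innate defence genes 5 (12.8%) were higher, against 4.07% of all probe sets, and 2 lower, against 4.01%, with a median of -0.02. A count of 2 is close to that share. CHI3L1, a secreted chitinase-like lectin, had the largest change of all probe sets, 1.85 ± 0.78, with 6.29, 9.04 and 11.92 on day 40, against 6.19, 7.05 and 8.79 on day 23. It was higher in 4 of 6 cows (exact sign-flip p = 0.219), and its spread between cows on day 40 (SD 2.55) exceeded the change. LTF (lactoferrin), the iron-binding milk protein, had a change of 0.62 ± 0.24 and was higher in 4 of 6 cows. SERPINA1 (0.56), TLR4 (0.18) and LAP (0.41) were the other genes higher, and NOS2 (-0.19 ± 0.09) and CXCL2 (-0.19 ± 0.08) were lower. CHI3L1, LTF and CXCL2 were named as the 3 smallest p of the list, and the others were added after their values were seen. All of these were thus picked by their values. In the former 4× glands the defence list had a median of -0.01, with 18 of 39 positive.

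The 75 genes that the study grouped into 4 clusters were chosen on arrays of this series and are no independent evidence. The choice used the 2× arrays of day 23 compared here. Besides the epithelial, complement and defence genes above, the largest cluster holds CRYAB, CYP11A1 and FAM210B, given elsewhere in this report. It also holds KLF10, given below on another probe set. All 61 genes of the largest cluster had positive changes (median 0.62) and 33 (54.1%) were higher at an unadjusted p under 0.05. Their mean differed by 1.82, -0.25, 1.52, -0.09, -0.12 and 1.07 between day 40 and day 23 in cows 1 to 6. Its level on day 23 was narrow, 6.69 to 7.06, against 6.82 to 8.66 on day 40, and the cows that stood high on day 40 had also stood high on day 21. Without cow 1, 3 or 6 the count was 11, 10 or 12, and without the replicate block it was 11. In the former 4× glands the same cluster had a median of -0.28, with 5 of 61 positive, and 34 of 61 genes had a difference between the sides at an unadjusted p under 0.05, none of them adjusted. SOX4, a transcription factor of progenitor cells, had a change of 0.76 ± 0.31 on the probe set of that cluster and of 0.30 ± 0.13 on the one annotated to it. EGR1, an immediate-early factor, had a change of 0.31 ± 0.43.

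**Figure D3:**
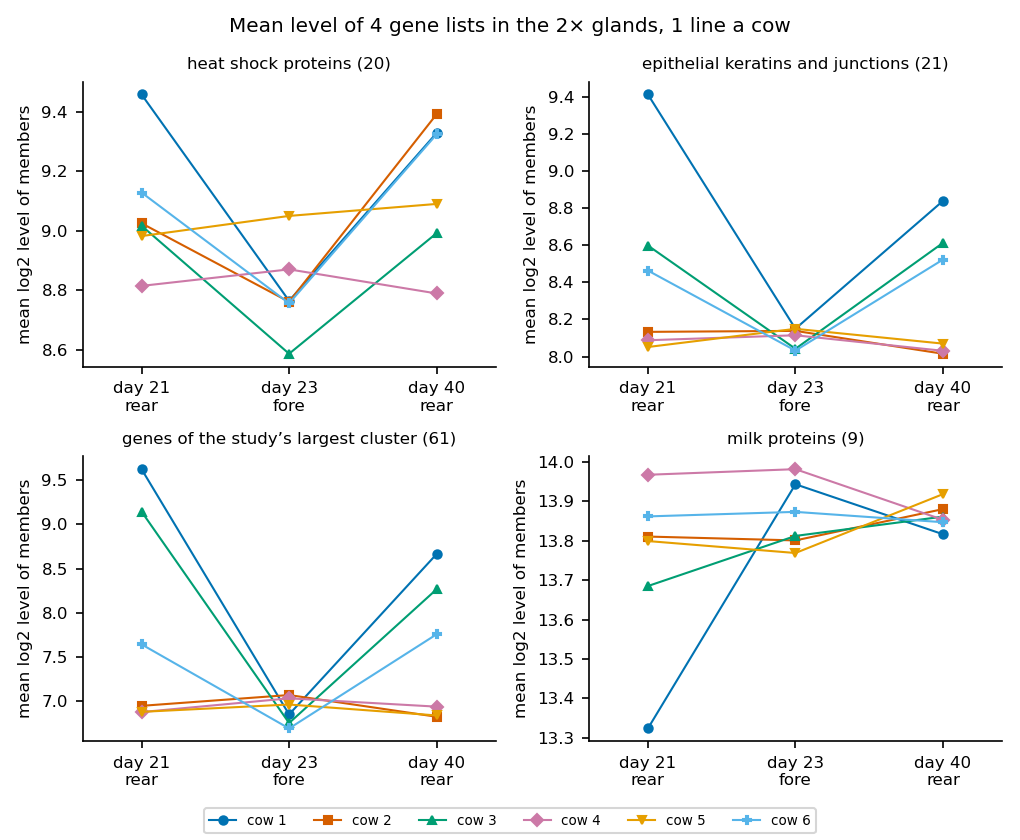
Mean log2 level of 4 gene lists in the 2× glands on days 21, 23 and 40, 1 line a cow. Heat shock genes dip on day 23 in cows 1, 2, 3 and 6, keratin and junction genes and the study's largest cluster dip in cows 1, 3 and 6, and milk proteins lie between 13.32 (cow 1) and 13.97 on day 21, 13.77 and 13.98 on day 23, and 13.82 and 13.92 on day 40.

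The cows' differences over all probe sets showed the same division of spread. Their SD was 0.38, 0.35 and 0.37 in cows 1, 3 and 6, and 0.25, 0.26 and 0.21 in cows 2, 4 and 5. Nothing in the labels sets these cows apart.

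LRP2 (megalin), an endocytic receptor of epithelia, had lower values on day 40. The probe set that the study names as LRP2 had 4.21, 5.15 and 6.15 on day 40, against 4.98, 6.14 and 6.72 on day 23, and was lower on day 40 in 6 of 6 cows, with wide overlap between cows. The change was -0.76 ± 0.21, a 1.69-fold lower level (adjusted p = 0.613), and -0.60 ± 0.21 in the former 4× glands. With another probe set of MSTN and with SLC34A2 it forms a cluster of 3 genes with a median change of -0.38. The 8 genes of another of the study's clusters all had negative changes, with a median of -0.41. LPIN1, given below on another probe set, is one of them.

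Probe sets lower on day 40 were often dim. Of the 964 probe sets lower at an unadjusted p under 0.05, 42.4% had a mean level under 5, against 10.2% of those higher and 31.2% of all. IQGAP3, a scaffold protein of dividing cells, had 5.07, 5.22 and 5.42 on day 40, against 5.56, 5.61 and 5.69 on day 23, without overlap and lower in 6 of 6 cows as were 1.93% of all probe sets (change -0.40 ± 0.10). A second IQGAP3 probe set had a change of 0.02. TBXAS1, thromboxane synthase, had 5.37, 5.92 and 6.21 on day 40, against 5.90, 6.31 and 6.79 on day 23 (-0.47 ± 0.12), and its 2 other probe sets had changes of -0.21 and -0.31. PRKAA2, a catalytic subunit of AMP-activated kinase, had the largest negative change among annotated genes with an unadjusted p under 0.01 (-0.53 ± 0.16), but its mean level was 3.82 on day 40 and 4.36 on day 23.

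Among brighter genes FBXL20, a subunit that selects substrates for ubiquitin ligases, had 9.16, 9.29 and 10.18 on day 40, against 9.73, 9.90 and 10.19 on day 23, and was lower in 6 of 6 cows. All 3 of its probe sets had negative changes, of -0.44, -0.45 and -0.53, as they had in the former 4× glands (-0.38, -0.56 and -0.32). ADIPOR2, a receptor for adiponectin, had a change of -0.49 ± 0.17, GSDMB of -0.47 ± 0.15 and PFKFB4, a regulator of glycolysis, of -0.46 ± 0.16. LNP1, RECQL4, STRN, RPGRIP1, C23H6orf47, NOCT, PYGM and CRYGD had changes between -0.37 (LNP1) and -0.23 (CRYGD).

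Of the other genes higher on day 40, HOXA9, a homeobox factor of body position, had 6.73, 7.40 and 9.89 on day 40, against 6.24, 6.70 and 7.54 on day 23, higher in 6 of 6 cows (0.88 ± 0.24, adjusted p = 0.612). It averaged 8.15 on day 21, and had a change of 0.45 ± 0.24 in the former 4× glands. Of 11 HOX genes measured, a family listed after its values were seen, HOXA9 and HOXA5 (0.40 ± 0.18) were higher, and the remaining genes lay between -0.13 and 0.27. ASB11, a ubiquitin ligase adaptor, had 9.95, 10.81 and 12.15 on day 40, against 8.70, 10.09 and 11.86 on day 23, and had nearly the same change in the 2× glands (0.92 ± 0.32) as in the former 4× glands (0.91 ± 0.32). ACSM1, a medium-chain acyl-CoA synthetase, had a change of 0.64 ± 0.15 in the 2× glands and of 0.57 ± 0.15 in the former 4× glands. FAM210B had a change of 0.80 ± 0.26, CTSV, a lysosomal protease, of 0.38 ± 0.10, CCDC117 of 0.39 ± 0.10, ZBTB4 of 0.37 ± 0.10, RNF113A of 0.31 ± 0.08 and UNC119B of 0.27 ± 0.07. A second probe set of ZBTB4 and one of UNC119B had changes of -0.18 and -0.09.

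**Figure D4:**
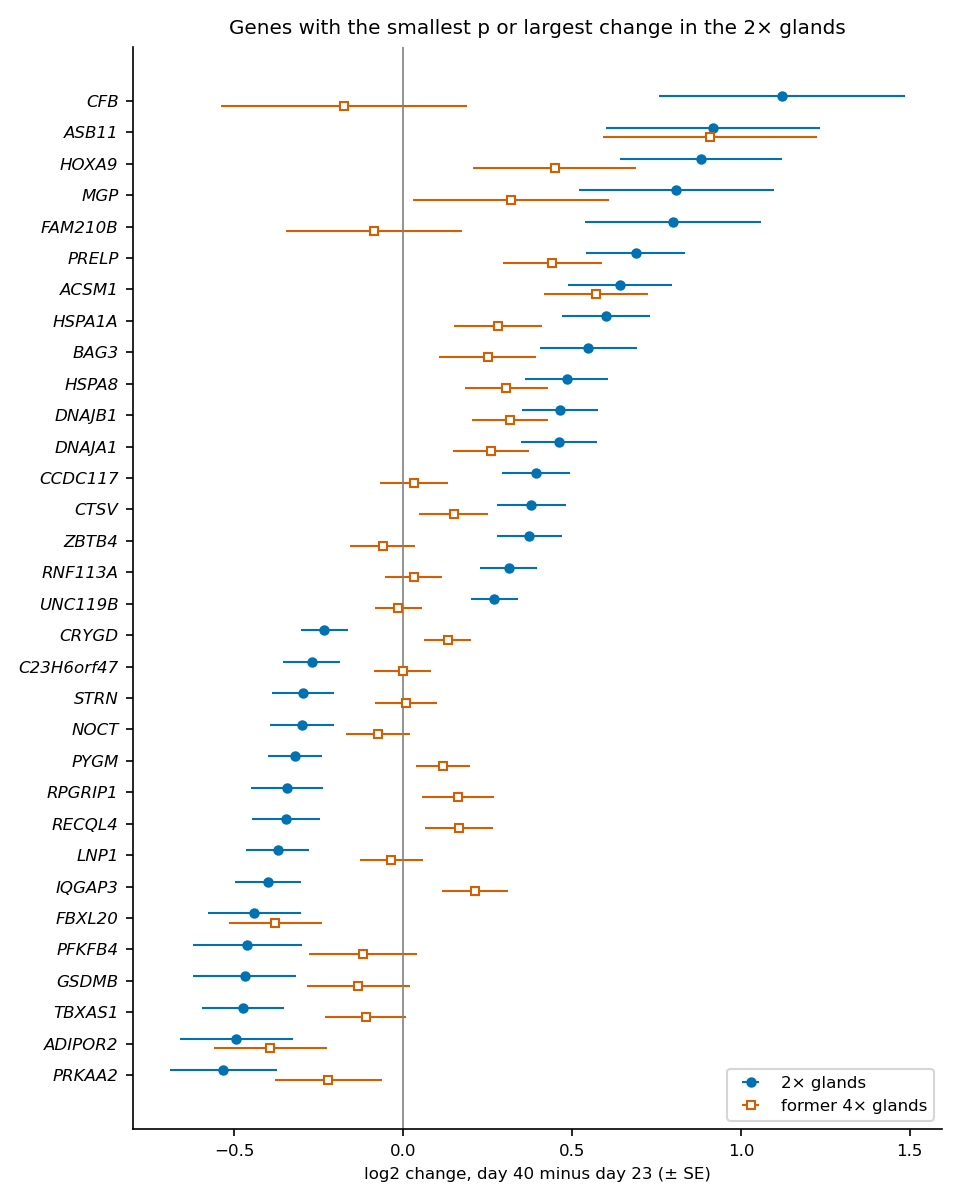
Change, day 40 minus day 23 (log2, ± SE) of the genes with the smallest p or largest change in the 2× glands, for the 2× glands (filled circles) and the former 4× glands (open squares). ASB11, ACSM1 and FBXL20 have close values on both sides, while CFB had a change of 1.12 in the 2× glands and of -0.17 in the former 4× glands.

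Among genes whose difference between the sides had the same sign in 5 or more cows, the 5 with the smallest p for a difference between the sides all had lower values on day 40 in the 2× glands and higher values in the former 4× glands. IQGAP3 had a change of -0.40 ± 0.10 in the 2× glands and of 0.21 ± 0.10 in the former 4× glands, a difference of -0.61 ± 0.14 (adjusted p = 0.48). PYGM, CRYGD, TTYH1 and CNNM1, with differences of -0.44, -0.37, -0.47 and -0.42, were at the same adjusted p, and PYGM and CRYGD were dim, with mean levels of 3.95 and 4.21 over the 36 arrays.

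None of 9 milk protein genes had an unadjusted p under 0.05, with changes between -0.03 and 0.04 and a median of -0.00. CSN1S1, the alpha-s1 casein, had a change of -0.03 ± 0.08, CSN3, the kappa casein, of -0.02 ± 0.06 and PAEP, the beta-lactoglobulin, of 0.02 ± 0.04. Of 39 genes of milk fat synthesis, 8 had positive changes and 31 had negative ones (median -0.07). Positive changes made up 43.8% of all probe sets and 51.9% at 1 probe set a gene. At an unadjusted p under 0.05, 4 of them (LPIN1, FADS2, GPAT4 and PLIN3) were lower, against 4.01% of all probe sets, and none was higher. LPIN1, a phosphatidate phosphatase, had a change of -0.40 ± 0.16 in the 2× glands and of -0.36 ± 0.16 in the former 4× glands, GPAT4, a glycerol-phosphate acyltransferase, of -0.36 ± 0.17, FADS2, a desaturase, of -0.23 ± 0.10 and PLIN3, named after its value was seen, of -0.23. FASN and SCD had changes of -0.10 and 0.03. LPIN1 is, on another probe set, also in one of the study's clusters, which were chosen on arrays of this series. In the former 4× glands the milk fat list had a median of 0.00, with 20 of 39 positive. There 1 was higher and 3 were lower, against 3.32% and 3.23% of all probe sets. Set against day 21, its median change in the 2× glands was 0.23 on day 23 and 0.12 on day 40. These comparisons share arrays. UGP2, which makes UDP-glucose, was the 1 of 11 genes of lactose synthesis and glucose uptake that was lower (-0.27 ± 0.11). Cholesterol synthesis (15 genes), nutrient and ion transporters (15) and prolactin and growth hormone signalling to STAT5 (16) had no gene at an unadjusted p under 0.05, with medians of -0.09, -0.10 and -0.05.

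Most of the next lists had few such genes, and all are read against 4.07% of all probe sets higher and 4.01% lower. Of 28 immediate-early and mechanosensitive genes 3 were higher. KLF4, a zinc-finger factor, was higher in 6 of 6 cows (0.50 ± 0.17), KLF10, induced by TGF-beta, in 5 (0.75 ± 0.28) and JUNB, an AP-1 subunit, in 4 (0.42 ± 0.20). Luminal progenitor and ductal regulators (11 genes) had 3 higher (27.3%), ELF3 (0.42 ± 0.16), SOX4 and CYP11A1 (0.84 ± 0.37). The mean of that list was higher on day 40 in 6 of 6 cows, by 0.04 to 0.73, and its median in the former 4× glands was -0.06. Involution and STAT3 genes had 3 of 31 higher, TIMP1, FAS and OSMR, with a median of 0.03. Interferon response genes had 3 of 34 higher, IFIT5 (0.48 ± 0.15), PARP9 (0.30 ± 0.12) and UBE2L6 (0.17 ± 0.08), with a median of 0.07. Cell cycle genes had 2 of 32 higher, NUSAP1 and PCNA, class II antigen presentation had 1 of 13 (BOLA-DMB), and oxidative phosphorylation had 1 of 35 lower (NDUFV1). Cytosolic ribosomal proteins had 0 of 35 and a median of 0.02.

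No gene was at an unadjusted p under 0.05 among 13 myoepithelial and smooth muscle, 18 endothelial, 11 adipocyte, 18 macrophage, 13 neutrophil, 22 T and natural killer cell and 7 erythrocyte markers, with medians from -0.13 (erythrocyte) to 0.05 (endothelial). Among 12 B and plasma cell markers CD38 was lower (-0.26 ± 0.10), and among 16 skeletal muscle genes MSTN was lower (-0.61 ± 0.26). The 14 reference genes had a median of 0.03 and none at that threshold.

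**Figure D5:**
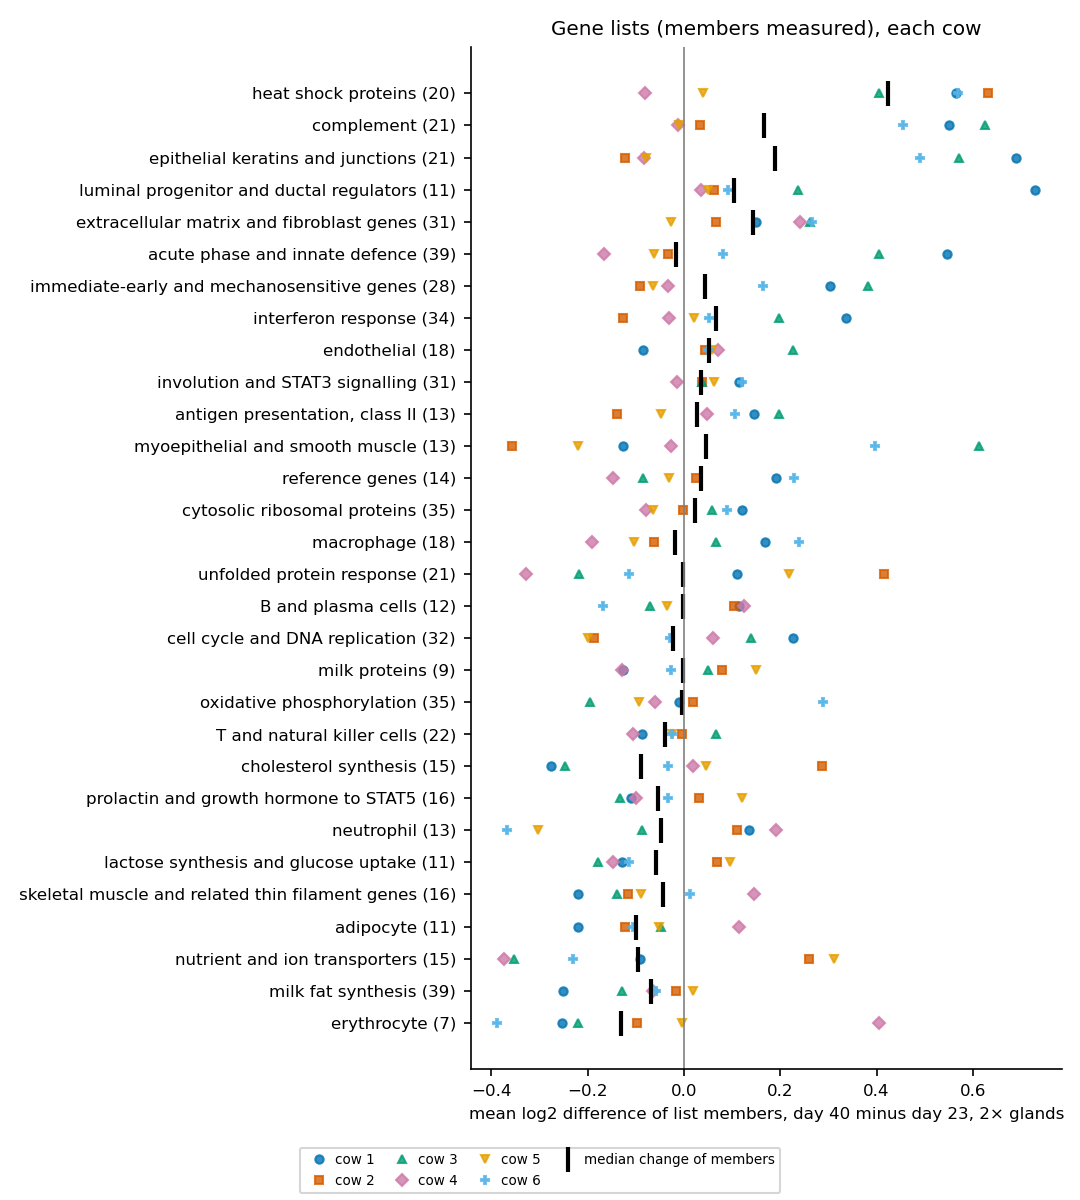
Mean log2 difference (day 40 minus day 23, 2× glands) of the members of each list of functions, cell types or reference genes in each cow, as coloured points, with the median fitted change of the members as a black mark and the number of genes measured in brackets. Heat shock proteins have a median of 0.42, the other lists drawn, which leave out the study's clusters and the HOX genes, lie between -0.13 and 0.19, and the cows' points spread on both sides of 0 in most of them.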

How the data were processed

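The authors hybridised 1 GeneChip Bovine Genome Array to each mammary biopsy and deposited log2 values, which they had background-corrected, normalised and summarised by the Robust Multichip Average method (RMA). One file of 24128 probe sets and 36 arrays was used. After 112 control probe sets were left out, 24016 were tested, 13292 of them with 1 gene symbol in the platform annotation (9155 symbols). A linear model (limma 3.58.1, R 4.3.3) had 6 condition means and cow as a block (25 residual degrees of freedom), with empirical Bayes moderation and Benjamini-Hochberg adjustment over all probe sets. It was tested on simulated data. Pairing came from the cow numbers in the labels, and the correlation of paired deviations was 0.0997 to 0.376, with its own pair the best match in 3 of 6 cows. Repeat biopsies of a cow share the animal, and the number of arrays limits the precision. A gene was taken at its brightest probe set in lists and ranks. For single genes an exact sign-flip test, two-sided, was run over 6 cows (64 flips, smallest p = 0.031). Named genes were the 12 with the smallest p in each direction that changed alike in 5 or more cows, the 5 largest changes in each direction at an unadjusted p under 0.01, the 5 smallest p between the udder sides by the same rule, the 3 smallest p of each list, and 5 genes the study measured by PCR. Genes named by p or by size of change were thus picked by their values in these data. The members and lists were chosen with earlier results of these data known. Alternatives were other blocks, array subsets, moderation, weights, scalings and filters, and each cow left out.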

Additional observations from a re-analysis of the deposited data

Results flagged for a closer look

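One array stood far from its group among 78 groups of 6 examined, where about 1 in 20 groups is picked out by chance. HOXA9 measured 9.89 in cow 1 on day 40, against 7.72 in the next highest cow, and the gap was 0.688 of the range of the day 40 group. Cow 1 also had the highest HOXA9 level of the 2× glands on day 21 (10.11, next 8.84) and on day 23 (7.54, next 6.98).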

How the results depend on the processing

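The count of 0 after adjustment held under every alternative except without cow 5, where 1 probe set (HSPA1A) was higher. For the leave-one-out fits the count with an adjusted p under 0.05 and higher on day 40 thus ranged from 0 to 1. Probe sets at an unadjusted p under 0.01 numbered 339, against 131 without the replicate block, 183 on the 18 arrays of the 2× glands with cow as a block and 146 at 1 probe set a gene, and 134 to 653 with each cow left out. Those higher at 0.05 numbered 977, against 488 without the block, 651 on the 18 arrays and 482 at 1 probe set a gene, and 423 to 1402 with each cow left out. Those lower numbered 964, against 577 without the block, 619 on the 12 arrays with cow as a block, 535 without dim probe sets and 264 at 1 probe set a gene, and 462 to 1726 with each cow left out. Fewer probe sets were tested at 1 probe set a gene (9155) and without dim probe sets (16525). The split moved there as well: 64.6% and 61.4% of those at 0.05 were higher, against 50.3% in the main fit. The cause of these and the other shifts was not tested. Without the block 11 heat shock genes were higher, against 15. Of 2252 values of named genes under alternatives, 2246 kept their sign. The exceptions were PAEP scaled to reference genes (-0.015) and, with a cow left out, CSN3 (-0.043 to 0.0043), CSN1S1 (-0.055 to 0.014), SDHB (-0.0017 to 0.17), MYH11 (-0.019 to 0.20) and EGR1 (-0.034 to 0.69).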
